A study of Rattus norvegicus with 12 samples.

Results

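The genes described here are 10 functional astrocyte genes of the central nucleus of the amygdala (CeA), taken by name from a table of 37209 genes: *Slc1a2*, *Slc1a3*, *Glul*, *Aqp4*, *Kcnj10*, *Gja1*, *Gjb6*, *Gfap*, *S100b* and *Aldh1l1*. The rule that names them uses their function in astrocytes and no measured value, although it was chosen with earlier results of these data known. Poly-A RNA-Seq libraries were made from CeA punches of 12 male wild-type Sprague Dawley rats aged 14 to 16 weeks, 1 library per rat. The 6 rats of the chronic intermittent ethanol (CIE) group were exposed to ethanol vapor (14 h) and then to room air (10 h) each day for a period of 5 to 7 weeks and were killed when the last vapor session ended, while the 6 rats of the Control group breathed air throughout and were killed after their last air session. Rats carry the numbers of their labels, CIE 1 to 6 and Control 7 to 12, so anything that follows this order cannot be told apart from CIE.

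Astrocytes clear glutamate from the synapse through the transporters GLT-1 (*Slc1a2*) and GLAST (*Slc1a3*), convert it to glutamine with glutamine synthetase (*Glul*) and return the glutamine to neurons. Their end-feet around blood vessels carry the water channel aquaporin-4 (*Aqp4*) and the inwardly rectifying potassium channel Kir4.1 (*Kcnj10*), which takes up potassium released by active neurons. The connexins Cx43 (*Gja1*) and Cx30 (*Gjb6*) form the gap junctions that join astrocytes into a network. *Gfap*, *S100b* and *Aldh1l1* encode an intermediate filament, a calcium-binding protein and a folate enzyme that are widely used to mark these cells. Several of these genes are not exclusive to astrocytes, since oligodendrocytes also express Kir4.1, S100B and glutamine synthetase.

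Total counts per rat ranged from 39082548 to 95647601, and each of the 10 genes had between 896 and 90132 counts in every rat, lowest for *Aldh1l1*. Expression is given as CPM, a gene's count scaled to the same library total in every rat, with TMM normalization. All 10 genes were among the 20944 genes tested with edgeR's quasi-likelihood F test, with a nominal threshold of p below 0.05 and a false discovery rate (FDR) of 5% over all genes tested. Of 8 CeA neuron markers, the 7 found under their listed symbols were all expressed, and 2 of them were lower in CIE rats at the nominal threshold, *Crh* (log2 fold change -0.45, p 0.0193) and *Nts* (-0.46, p 0.0437). Markers of neighbouring regions varied widely, the summed level of 6 striatal markers lying between 434 and 3106 CPM in CIE rats and between 216 and 3449 CPM in Control rats. All 6 cortical glutamatergic markers had higher mean levels in CIE rats (median log2 fold change 1.03), and 2 of them, *Neurod2* and *Fezf2*, passed the nominal threshold. Over all genes tested, 4.31% were lower and 4.0% higher in CIE rats at the nominal threshold. Of 12 markers of oligodendrocytes, 11 were lower in CIE rats at that threshold. Their summed level was 5791 to 14044 CPM in the CIE group, where rat 6 was the highest, and 8896 to 16663 CPM in Control rats.

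Of the 10 astrocyte genes, 4 differed between the groups at the nominal threshold, against 8.31% of all genes tested. These shares compare genes of unlike precision, since the median SE was 0.093 in the 10 genes and 0.130 over all genes. The median absolute log2 fold change was 0.12 in the 10 genes and 0.11 over all genes. *Aqp4* and *Kcnj10* were lower in the CIE group and *S100b* and *Gjb6* were higher. No gene of the 10 passed 5% FDR, which 0.363% of all genes did, and the smallest FDR was 0.448 for *Aqp4*. DESeq2 called the same 4 genes at the nominal threshold and 0 at 5% FDR. Of the 29389 genes it tested, 2199 passed the nominal threshold and 274 passed 5% FDR, against 76 at 5% FDR in edgeR. In none of the 10 genes were the groups free of overlap, a pattern found in 0.893% of all genes tested. The median log2 fold change of the 10 genes was 0.01, against 0.00 over all genes, and the 10 levels summed to 3500.2 ± 278 CPM in CIE rats and 3506 ± 194 CPM in Control rats (SD, n = 6). Of the 10 log2 fold changes, 6 were above and 4 below 0. A lower level in a punch can stand for fewer cells of a type or less RNA per cell, which cannot be told apart here.

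**Figure D1:**
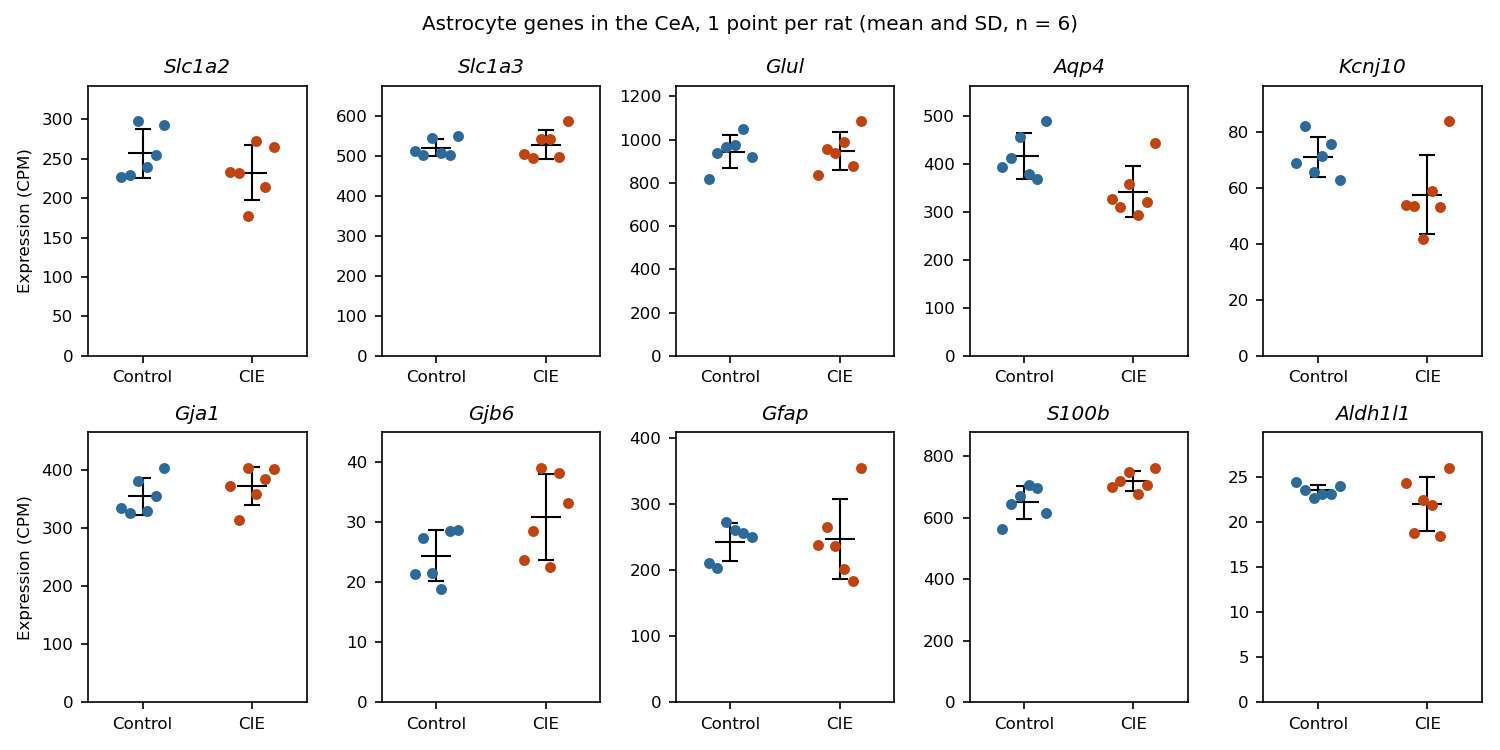
Expression of the 10 astrocyte genes in CPM (vertical axes, each from 0), 1 point per rat, with the mean and SD of each group (n = 6) in black and points spread sideways for legibility. For *Kcnj10*, 5 CIE rats lie below every Control rat while CIE rat 6 lies above them all, and for *S100b* 4 CIE rats lie above every Control rat.

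The glutamate uptake and recycling genes differed by less than the spread between rats. *Slc1a2*, which encodes the main glutamate transporter of the forebrain, was at 178, 232 and 273 CPM (lowest, median and highest) in CIE rats and at 227, 248 and 298 CPM in Control rats. The groups overlapped, with 2 CIE rats below every Control rat. Its log2 fold change was -0.15 (SE 0.11, 95% CI -0.37 to 0.08, FDR 0.784, nominal p 0.191). *Slc1a3* was the steadiest of the 3 genes, at 496, 523 and 587 CPM in CIE rats and 504, 511 and 551 CPM in Control rats. Its log2 fold change was 0.02 (SE 0.06, 95% CI -0.11 to 0.15, FDR 0.956). *Glul* was at 837, 948 and 1085 CPM in CIE rats and 819.8, 951 and 1048 CPM in Control rats. The groups covered nearly the same range, and the log2 fold change was 0.00 (SE 0.07, 95% CI -0.16 to 0.16, FDR 0.994).

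The water and potassium channel genes were both lower in the CIE group. *Aqp4* was at 294, 324 and 444 CPM in CIE rats and 368, 403 and 489 CPM in Control rats. All Control values exceeded those of CIE rats 1 to 5, and CIE rat 6 was within the Control range. The group mean was 343 ± 54.0 CPM (SD, n = 6) in CIE rats and 416 ± 47.3 CPM (SD, n = 6) in Control rats, which gave a log2 fold change of -0.28 (SE 0.10, 95% CI -0.50 to -0.06, FDR 0.448, nominal p 0.0163). An exact permutation test of the mean log2 CPM gave p = 0.0281 (two-sided). *Aqp4* was the only one of the 10 genes to stay below the nominal threshold whichever of the 12 rats was left out of the edgeR fit, with p values between 0.000935 and 0.0439. With the oligodendrocyte marker score as a covariate its log2 fold change was -0.23 and the nominal p 0.110.

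*Kcnj10* was at 41.8, 53.7 and 83.7 CPM in CIE rats and 62.6, 70.0 and 82.0 CPM in Control rats. Its CIE values divided, rats 1 to 5 lying between 41.8 and 58.7 CPM, below every Control rat, and rat 6 lying above every Control rat. The log2 fold change was -0.30 (SE 0.13, 95% CI -0.59 to -0.02, FDR 0.566, nominal p 0.0376), and the exact permutation test gave p = 0.0498. Without CIE rat 6 the log2 fold change was -0.44 (SE 0.09) and the edgeR FDR 0.0451, the single fit of those run in which any of the 10 genes passed 5% FDR. In that fit 154 of all 21093 genes tested passed 5% FDR, against 76 of 20944 with all 12 rats. *Kcnj10* missed the nominal threshold in 8 of the 12 fits with a rat removed, those without CIE rats 1 to 5 or without Control rats 8, 10 and 11, with log2 fold changes of -0.23 at the smallest and p values up to 0.0944.

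The rats with extreme levels of the oligodendrocyte markers were also the extreme rats for *Kcnj10*. CIE rat 3 had the lowest summed level of these markers, 5791 CPM, and the lowest *Kcnj10* level. CIE rat 6 had the highest summed level of its group, 14044 CPM, and the highest *Kcnj10* level of all 12 rats. In the Control group, rat 12 was lowest in both, at 8896 CPM for the markers and 62.6 CPM for *Kcnj10*, and rat 8 was highest in both, at 16663 CPM and 82.0 CPM. The order did not hold between these extremes, since CIE rat 4 had the next lowest marker sum of its group, 6786 CPM, and the next highest *Kcnj10* level, 58.7 CPM. When the oligodendrocyte marker score was entered as a covariate, the log2 fold change of *Kcnj10* was 0.01 (SE 0.11, edgeR nominal p 0.899), whereas that of *S100b* was 0.20 (nominal p 0.0289). The marker score itself differed between the groups, so a change of *Kcnj10* in oligodendrocytes and one in astrocytes cannot be told apart.

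**Figure D2:**
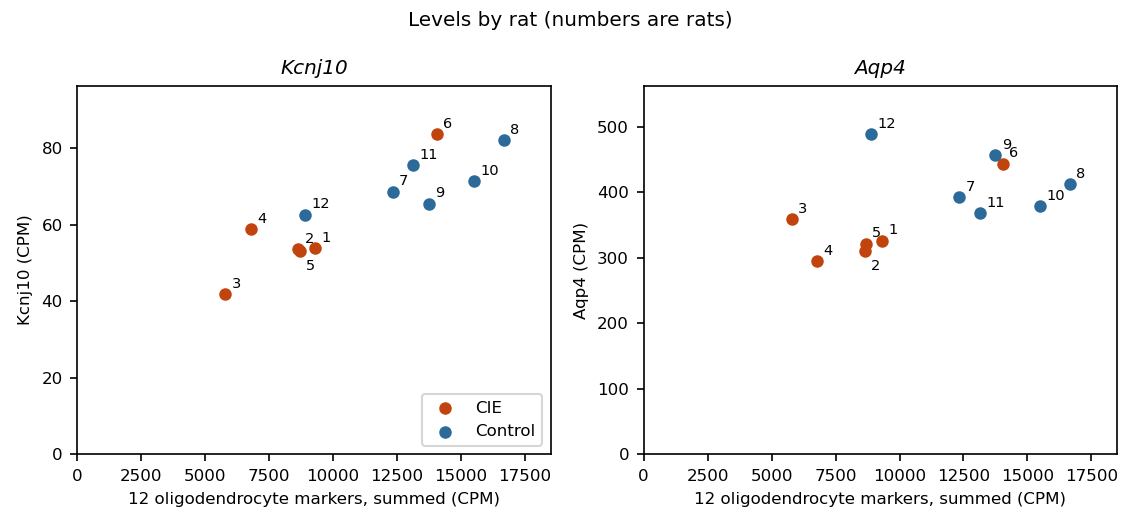
Levels of *Kcnj10* (left) and *Aqp4* (right) in CPM against the summed CPM of 12 oligodendrocyte markers, 1 numbered point per rat, CIE in orange and Control in blue, all axes from 0. In each group the rats with the lowest and highest marker sum were also the lowest and highest for *Kcnj10*, while Control rat 12 joined a low marker sum of 8896 CPM with the highest *Aqp4* level, 489 CPM.

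Within each group the relation was computed for the 10 genes, 20 relations in all, a comparison added after the values were seen. For *Kcnj10* Pearson's r with the marker score was 0.85 in the CIE group (exact permutation p = 0.0472, adjusted over the 20 relations 0.324) and 0.81 in the Control group (exact permutation p = 0.0486, adjusted 0.324). Spearman's rho was 0.60 in the CIE group (exact permutation p = 0.242, adjusted 0.763) and 0.71 in the Control group (exact permutation p = 0.136, adjusted 0.763). Without the 2 rats farthest from the median score, r was -0.94 in CIE rats and 0.19 in the Control group, so the relation rests on those rats. No relation of the 20 passed after adjustment.

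Of the 2 astrocyte connexins, *Gjb6* was higher in the CIE group at the nominal threshold and *Gja1* did not pass. *Gjb6* was at 22.5, 30.9 and 39.1 CPM in CIE rats and 19.0, 24.5 and 28.8 CPM in Control rats. CIE rats 3, 5 and 6 were above every Control rat, and the other CIE rats were within the Control range. The group mean was 30.9 ± 7.14 CPM (SD, n = 6) in CIE rats and 24.4 ± 4.29 CPM (SD, n = 6) in Control rats. The log2 fold change, 0.34 (SE 0.15, 95% CI 0.01 to 0.67, FDR 0.590, nominal p 0.0447), was the highest of the 10 genes, but the exact permutation test gave p = 0.0931. *Gjb6* missed the nominal threshold without CIE rats 3, 5 or 6 and without Control rats 7, 9 or 10, with p values up to 0.117, and in limma-voom with sample quality weights (log2 fold change 0.18, nominal p 0.227). With scores of cortical and striatal markers as covariates its log2 fold change was 0.45 and the nominal p 0.00490 (FDR 0.282), and with the oligodendrocyte marker score they were 0.27 and 0.200.

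*Gja1*, the other astrocyte connexin, was at 315, 379 and 404 CPM in CIE rats and 326, 345 and 405 CPM in Control rats. The groups covered the same range, and the log2 fold change was 0.07 (SE 0.08, 95% CI -0.09 to 0.23, FDR 0.865). The *Gjb6* count was 0.0826 ± 0.0162 of the *Gja1* count (SD, n = 6) in CIE rats and 0.0689 ± 0.0116 (SD, n = 6) in Control rats, a mean log2 difference of 0.25 (exact permutation test, p = 0.134, adjusted over 4 ratios 0.268). A difference between the connexins was therefore not resolved by these rats.

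Among the other connexins and pannexins, 12 of 20 were tested and 11 of the 12 had a negative log2 fold change, with a median of -0.33 against 0.00 over all genes. At the nominal threshold 3 were lower in CIE rats and 0 higher, against 4.31% of all genes lower and 4.0% higher. *Gjb1* (Cx32), a connexin of oligodendrocytes, was at 16.1 ± 3.12 CPM in CIE rats and 23.7 ± 5.98 CPM in Control rats, which gave a log2 fold change of -0.56 (SE 0.17, FDR 0.279, nominal p 0.00485). *Gjc3* (Cx29), which is also made by oligodendrocytes, had a log2 fold change (CIE against Control) of -0.57 (SE 0.24, FDR 0.533, nominal p 0.0298). *Gjd2* (Cx36), the connexin of electrical synapses between neurons, had a log2 fold change (CIE against Control) of -0.39 (SE 0.16, FDR 0.544, nominal p 0.0315). The oligodendrocyte connexins followed the oligodendrocyte markers in CIE rat 6, which had the highest *Gjb1* and *Gjc3* levels of its group, 21.6 and 21.7 CPM. With the oligodendrocyte marker score as a covariate, 1 connexin or pannexin of this list passed the nominal threshold, and with the cortical and striatal scores 1 did as well. Over all 20944 genes, 2340 and 1794 passed in these fits, against 1740 without a covariate. The part of oligodendrocytes in these counts was not tested.

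**Figure D3:**
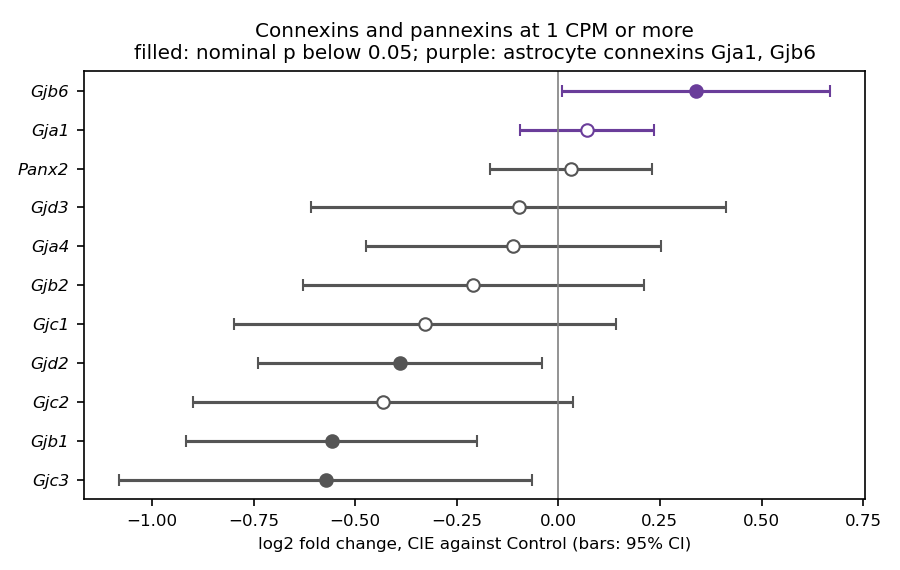
Log2 fold changes between the CIE and Control groups (edgeR) with 95% confidence intervals for the 11 connexin and pannexin genes with a mean of at least 1 CPM (a limit chosen after the values were seen), filled where the nominal p was below 0.05. The astrocyte connexins *Gjb6* and *Gja1* (purple) lie to the right of 0, at 0.34 and 0.07, and *Gjb1* and *Gjc3* lie farthest to the left, at -0.56 and -0.57.

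Of the structural and marker genes, *S100b* passed the nominal threshold and *Gfap* and *Aldh1l1* did not. *S100b* was at 677, 713 and 763 CPM in CIE rats and 565, 658 and 706 CPM in Control rats. All 6 CIE rats were above the Control median, and 4 of them were above every Control rat. The group mean was 719 ± 31.6 CPM (SD, n = 6) in CIE rats and 650.1 ± 53.0 CPM (SD, n = 6) in Control rats, which gave a log2 fold change of 0.15 (SE 0.06, 95% CI 0.01 to 0.28, FDR 0.566, nominal p 0.0373). The exact permutation test gave p = 0.0152, the smallest of the 10 genes in that test. *S100b* missed the nominal threshold without CIE rats 2, 3 or 6 and without Control rats 7 or 12, with p values up to 0.0918. It also missed it with no filter on low counts (nominal p 0.0552), in limma-voom (0.0525) and with the cortical and striatal scores (0.0654).

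*Gfap*, whose product accumulates in reactive astrocytes, was at 184, 238 and 355 CPM in CIE rats and 203, 253 and 274 CPM in Control rats. CIE rat 6 alone was above the Control range and CIE rats 4 and 5 were below it, so the CIE values surrounded the Control values. The log2 fold change was 0.03 (SE 0.14, 95% CI -0.27 to 0.32, FDR 0.974), and it was -0.10 without CIE rat 6. *Aldh1l1* was at 18.4, 22.2 and 26.0 CPM in CIE rats and 22.7, 23.4 and 24.4 CPM in Control rats. Its Control values were the tightest of the 10 genes, with a coefficient of variation of 2.70% against 13.6% in the CIE group, and 4 CIE rats were below them all. The log2 fold change was -0.10 (SE 0.08, 95% CI -0.28 to 0.08, FDR 0.824).

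**Figure D4:**
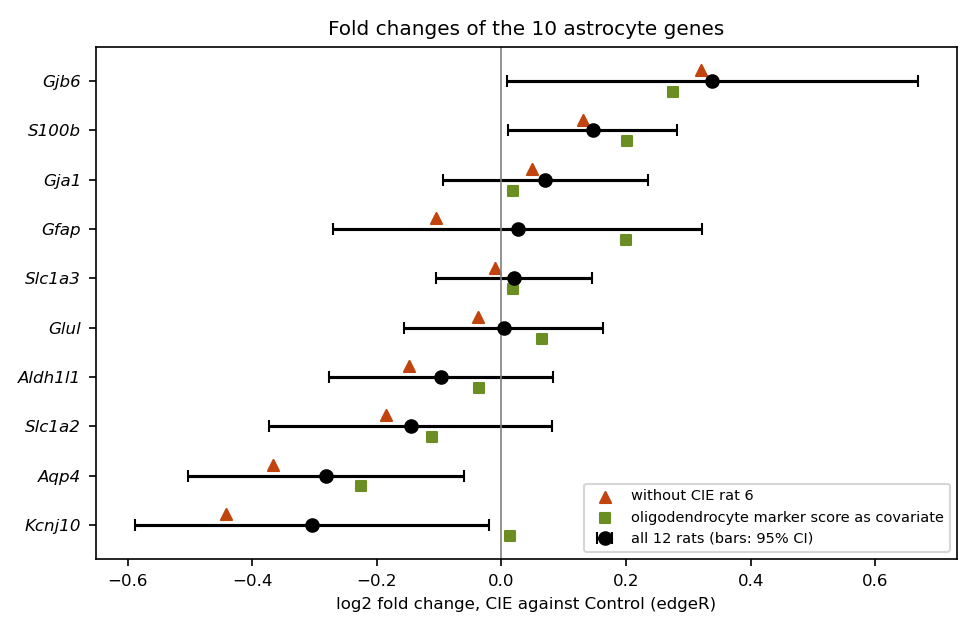
Log2 fold changes of the 10 astrocyte genes between the CIE and Control groups (edgeR, horizontal axis) with 95% confidence intervals from all 12 rats in black, and the values without CIE rat 6 (orange triangles) and with the oligodendrocyte marker score as a covariate (green squares). The intervals of *Kcnj10*, *Aqp4*, *S100b* and *Gjb6* leave out 0, and *Kcnj10* moves from -0.30 to -0.44 without rat 6 and to 0.01 with the covariate.

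Dixon's outlier test was run in each group on the 10 genes and on 4 count ratios, and flagged 0 of 28 sets of values. CIE rat 6 was often the extreme rat of its group in these genes and in markers of other cells. Of the CIE rats it also had the highest summed microglial (482 CPM), endothelial (406 CPM) and oligodendrocyte precursor (317 CPM) markers and the lowest summed neuronal markers (3752 CPM), and the part of these cells was not tested. The summed level of 28 other astrocyte genes was highest in CIE rat 3 (10694 CPM), with CIE rat 6 at 9612 CPM. Among the 10 genes CIE rat 6 had the highest CIE value in 7 and the lowest in 0. Averaged over the 10 genes its log2 CPM was 0.27 above the CIE mean, whereas the other CIE rats were between 0.01 and 0.07 below that mean. The Control rats were spread more evenly, from 0.11 below to 0.08 above their mean, with rat 7 the lowest and rat 12 the highest. Without CIE rat 6, 2 of the 10 genes passed the nominal threshold, *Aqp4* with a log2 fold change of -0.37 (SE 0.09, edgeR FDR 0.0842, nominal p 0.000935) and *Kcnj10* with the value given above. Over all genes, 1954 of 21093 passed the nominal threshold in this fit, against 1740 of 20944 with all 12 rats.

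**Figure D5:**
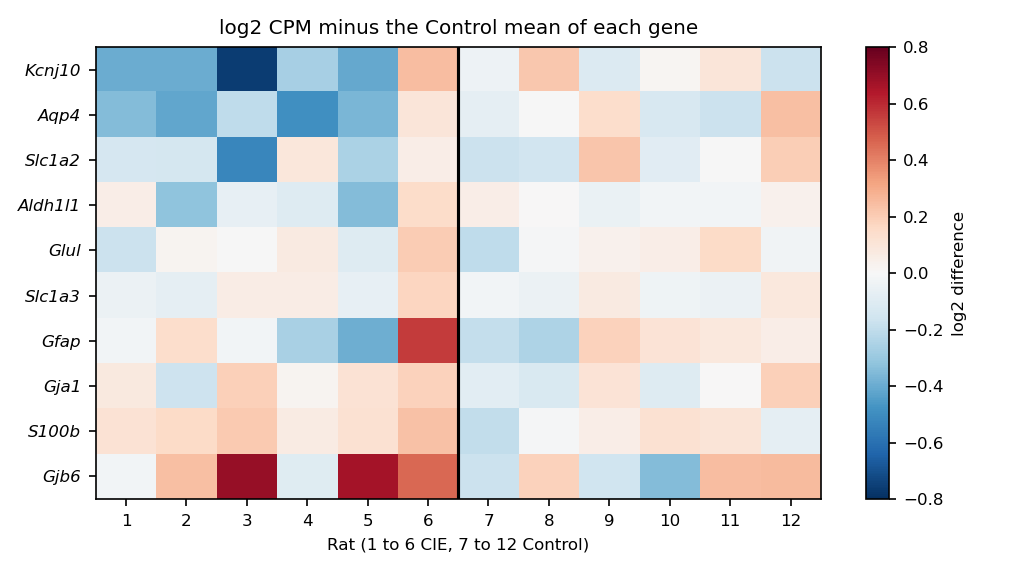
Log2 CPM of the 10 astrocyte genes (rows, ordered by fold change) in each rat (columns, CIE left and Control right of the black line) minus the Control mean of the gene, blue for lower and red for higher. *Kcnj10* and *Aqp4* are blue in CIE rats 1 to 5 and not in rat 6, and *S100b* is red in all 6 CIE rats.

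Ratios within a library do not depend on the normalization between libraries. The *Slc1a2* count was 0.440 ± 0.0596 of the *Slc1a3* count (SD, n = 6) in CIE rats and 0.492 ± 0.0416 (SD, n = 6) in Control rats, a mean log2 difference of -0.17 (exact permutation test, p = 0.102, adjusted over 4 ratios 0.268). CIE rat 3 had the lowest ratio of all rats, 0.328. *Kcnj10* to *Aqp4* gave 0.168 ± 0.0288 and 0.173 ± 0.0311 (mean log2 difference -0.04, exact permutation test, p = 0.797, adjusted 0.797). *Gfap* to *Aldh1l1* gave 11.2 ± 2.12 and 10.4 ± 1.42 (mean log2 difference 0.11, exact permutation test, p = 0.431, adjusted 0.574). None of the 4 ratios passed the threshold.

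Genes that handle glutamate and glutamine around the astrocyte transporters were called at about the share of all genes. Of 21 such genes tested, 2 were lower and 0 higher in the CIE group at the nominal threshold (8.31% of all genes in either direction), with a median log2 fold change of -0.02, and 0 passed 5% FDR. *Slc38a3* (SNAT3), a glutamine transporter of astrocytes, was at 51.3 ± 5.78 CPM in CIE rats and 59.3 ± 5.68 CPM in Control rats (SD, n = 6), which gave a log2 fold change of -0.21 (SE 0.08, FDR 0.517, nominal p 0.0268). *Slc1a4* (ASCT1), a transporter of small neutral amino acids in the family of the glutamate transporters, had a log2 fold change (CIE against Control) of -0.26 (SE 0.08, FDR 0.314, nominal p 0.00631). *Got2*, a mitochondrial aspartate aminotransferase, had one of -0.12 (nominal p 0.0656). The vesicular transporter gene *Slc17a7*, singled out after its values were seen, was at 130 ± 139 CPM in CIE rats and 32.3 ± 50.3 CPM in Control rats (SD, n = 6, nominal p 0.0901), a spread between rats that the cortical marker list shared, at 6.66 to 63.2 CPM summed in CIE rats and 6.14 to 24.1 CPM in Control rats.

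Of 18 genes of water, potassium and volume handling, 1 was higher and 0 lower at the nominal threshold, near the 4.0% and 4.31% of all genes, with a median log2 fold change of -0.01. The channel genes *Trpv4* (log2 fold change 0.53, nominal p 0.0790) and *Clcn2* (0.23, nominal p 0.0942) did not pass. *Kcnj16*, which encodes the Kir5.1 subunit that pairs with Kir4.1, was singled out after its values were seen and had a log2 fold change (CIE against Control) of -0.29 (SE 0.30, nominal p 0.351).

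Of 28 other astrocyte genes, 5 were lower and 0 higher in the CIE group at the nominal threshold (4.31% and 4.0% of all genes), with a median log2 fold change of -0.07, and 1 passed 5% FDR (0.363% of all genes). This was *Fabp7*, the brain fatty acid binding protein, with the smallest p value of all genes tested (log2 fold change -1.06, SE 0.08, FDR 2.64e-05). Its size was far outside that of the 10 functional genes, whose largest difference was 0.34 on the log2 scale. *Slco1c1*, a thyroid hormone transporter, had a log2 fold change (CIE against Control) of -0.39 (SE 0.10, FDR 0.164, nominal p 0.00154), and *Gpr37l1*, an astrocyte receptor, had one of -0.22 (SE 0.06, FDR 0.219, nominal p 0.00301). The other 2, named after their values were seen, were *Ntsr2* (-0.17, nominal p 0.0335) and *Sox9* (-0.16, nominal p 0.0449). The summed level of the 28 genes was 7910 to 10694 CPM in CIE rats and 8163 to 10201 CPM in Control rats.

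Genes known to rise in reactive astrocytes were also counted. Of 22 listed, 18 were tested, and 4 were lower and 0 higher at the nominal threshold, against 4.31% and 4.0% of all genes, with a median log2 fold change of -0.02. *Gbp2*, an interferon-induced GTPase, was at 1.75 ± 0.214 CPM in CIE rats and 2.78 ± 0.374 CPM in Control rats (SD, n = 6) without overlap, which gave a log2 fold change of -0.66 (SE 0.14, FDR 0.0621, nominal p 0.000258). *Nes*, which encodes the intermediate filament nestin, was at 3.61 ± 1.23 CPM against 5.95 ± 0.642 CPM, which gave a log2 fold change of -0.72 (SE 0.18, FDR 0.153, nominal p 0.00130), with CIE rat 6 at 6.02 CPM and the other CIE rats at 3.63 CPM or less. *Srgn*, a proteoglycan core protein of blood and endothelial cells, had a log2 fold change (CIE against Control) of -0.36 (SE 0.11, FDR 0.273, nominal p 0.00463). The other was *Hspb1* (-0.36, nominal p 0.0490), named after its value was seen. Nestin and serglycin are also made by endothelial cells, of whose 10 markers 6 were lower and 1 higher at the nominal threshold (9 and 1 by direction alone), and the part of those cells in this result was not tested.

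With the group means removed, the 10 genes kept a shared pattern over the 12 rats to different degrees. Each gene was correlated with the mean of the other 9 on standardized log2 CPM, as a description of rats that share libraries. CIE rat 6 lay farthest from its group mean over the 10 genes, 0.27 above it in log2 CPM. The correlations given here all include that rat and were not computed without it, so its share in them was not tested. *Slc1a3* (r = 0.77), *Aqp4* (0.74) and *Gfap* (0.72) followed the others most closely and *Gjb6* (0.12) least. The genes outside the list whose levels were most like the mean of the 10 were *Cbs* (r = 0.93 over 12 rats), which encodes cystathionine beta-synthase, *Txnip* (0.89), LOC100910978 (0.88), LOC102550967 (0.88) and *Dpys* (0.87). *Cbs* was at 57.0 CPM in CIE rats and 60.3 CPM in Control rats, a log2 fold change of -0.08 (nominal p 0.408). LOC100910978, LOC102550967 and *Dpys* were at about 1 CPM or less in both groups, where a likeness is weakly measured.

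All 10 genes were matched by symbol in a RefSeq table of promoter windows (GRCr8), each window running from 250 bases before to 50 bases after an annotated start, 16 windows in all. The windows of the genes with the lowest and the highest log2 fold change, *Kcnj10* on the plus strand at chr13:87334260-87334559 and *Gjb6* on the minus strand at chr15:35410089-35410388 (the first of 2 listed), are shown because these genes differed most and in opposite directions. They are printed 5′ to 3′ with the GC box, GGGCGG or its complement CCGCCC, in capitals.
Kcnj10: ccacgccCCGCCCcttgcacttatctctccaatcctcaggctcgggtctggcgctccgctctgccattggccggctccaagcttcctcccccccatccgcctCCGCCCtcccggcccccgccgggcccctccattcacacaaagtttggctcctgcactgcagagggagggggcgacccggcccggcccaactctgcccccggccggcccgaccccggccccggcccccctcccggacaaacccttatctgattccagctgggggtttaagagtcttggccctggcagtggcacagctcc
Gjb6: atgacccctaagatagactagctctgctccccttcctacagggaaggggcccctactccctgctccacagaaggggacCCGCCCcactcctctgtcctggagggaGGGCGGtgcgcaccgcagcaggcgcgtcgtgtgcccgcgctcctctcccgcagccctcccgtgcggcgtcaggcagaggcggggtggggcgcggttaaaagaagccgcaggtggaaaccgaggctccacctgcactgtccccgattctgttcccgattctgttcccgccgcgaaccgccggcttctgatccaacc
Both windows held 2 GC boxes, at a GC content of 70.3% and 67.0%. The median GC content was 53.15% over the 16 windows of the 10 genes and 51.7% over all windows. A GC box was found on either strand in 8 of the 16 windows and in 33.1% of 33469 windows of all genes. The 3 windows of *Slc1a3* overlap almost wholly, so the 16 windows are not separate sequences. The letters TATAAA were in 0 of the 16 windows (14.2% of all), TTCNNNGAA, the core of a STAT site, in 0 (8.87%), and AGAACA, a glucocorticoid receptor half-site, in 2 (20.7%), those of the second starts of *Slc1a2* and *Gjb6*. The palindromic NFI site and the clock E-box CACGTG were in 0 of the 16 (0.0418% and 6.42% of all). The GC box was chosen for the capitals after these matches were seen. Binding was not measured in these rats, and the matches describe the sequence alone.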

How the data were processed

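Per the paper's methods, the authors aligned paired reads from poly-A libraries with BWA (Rnor_6.0) and obtained gene counts with HTSeq. The deposited table holds these raw counts for each rat. Versions, strand and overlap settings are not given in the sources used here, so reads of near-identical or overlapping genes may be shared. Tests were run in R 4.3.3 (edgeR 4.0.16, limma 3.58.1, DESeq2 1.42.0) and Python 3.11.15 (scipy 1.17.1). The edgeR quasi-likelihood F test (two-sided) used TMM, filterByExpr and no covariates, whereas the paper used DESeq2, an alternative here. The edgeR FDR values are Benjamini-Hochberg adjusted over the genes tested in each fit, 20944 in the main fit and 21093 without CIE rat 6. DESeq2 calls use its own adjusted p values. SE is the log2 fold change over the root of F, and confidence intervals use that test's degrees of freedom. The fits were tested on simulated data, where edgeR missed the share of changed genes first asked of it, recovering scarce genes less often, and that criterion was replaced after this was seen. No pair of libraries within a group agreed within counting noise. Marker scores are means of standardized log2 CPM. The smallest p an exact permutation test can reach here is 0.00216.

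The genes and lists were chosen with earlier results of these data known. Named are the 10 genes, the 3 smallest p values and every gene at 5% FDR of each pathway list, and the 5 genes most like the mean of the 10, besides those said to be singled out later. Of these, 1 gene of the water and ion list is not reported here. Of the markers listed, *Tac2* was not matched. Levels were not compared between genes, since transcript lengths were not used. There were 20 alternatives, namely 2 scalings, 2 filters, DESeq2, limma-voom, 2 covariate fits and leaving out each of 12 rats. Promoter sequences are from RefSeq (GRCr8), whose coordinates are not those of Rnor_6.0.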

Additional observations from a re-analysis of the deposited data

How the results depend on the processing

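No paired analysis was possible because the rats of the groups share no numbers. Of the 10 genes, 4 passed the nominal threshold, 3 with library size only (*Kcnj10* lost, p 0.0538), 3 with no filter and 3 with the cortical and striatal scores (*S100b* lost in both), 2 with limma-voom, 1 with the oligodendrocyte score and 1 (without CIE rat 3) to 3 with a rat left out, 2 of them without CIE rats 2, 5 or 6 or Control rats 7 or 10. At 5% FDR 0 to 1 passed with a rat left out (1 without CIE rat 6). The cause of these and the following changes was not tested. The direction turned for *Kcnj10* with the oligodendrocyte score (0.0140), for *Slc1a3* with limma-voom (-0.00539), for *Glul* with no filter (-0.00193), limma-voom (-0.0195) and the cortical and striatal scores (-0.0148), and for *Gfap* with limma-voom (-0.0931) and those scores (-0.0117). With a rat left out the log2 fold change ranged from -0.0109 to 0.0373 in *Slc1a3*, from -0.0373 to 0.0369 in *Glul* and from -0.105 to 0.0970 in *Gfap*, and the log2 difference in the ratio of *Kcnj10* to *Aqp4* from -0.126 (Control rat 12 out) to 0.0584 (CIE rat 3 out). Over all genes the nominal calls (1740) were 3596 with limma-voom, 2340 with the oligodendrocyte score and 1347 (without Control rat 9) to 2811 (without CIE rat 3) with a rat left out, 2420 without Control rat 10. The nominal calls among glutamate-handling genes (2) were 9 with limma-voom, 4 with the oligodendrocyte score, 1 with the cortical and striatal scores and 1 (without CIE rats 2 or 4 or Control rat 7) to 7 (without Control rat 10), with 5 without CIE rat 3 and 4 without CIE rat 5. Those among water and ion genes (1) were 2 with library size only, 0 with no filter, 6 with limma-voom, 5 with the oligodendrocyte score, and 0 (without CIE rats 1, 2, 4 or 5 or Control rats 9 or 12) to 3 (without CIE rat 3), with 2 without CIE rat 6 or Control rat 10. Among connexins and pannexins (3) they were 5 with limma-voom, 1 with either covariate fit and 1 (without CIE rat 4 or Control rats 7 or 8) to 5 (without Control rat 12). Among other astrocyte genes (5) they were 3 with library size only, 9 with limma-voom and 3 (without CIE rats 2, 4 or 5 or Control rats 9, 11 or 12) to 7 with a rat left out. Over all genes, 60.3% of nominal calls were toward higher levels in CIE rats under library size only and 48.1% under TMM. Whether depth or the spread between rats limits a gene was not tested.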
